A study of Mus musculus with 15 samples.

Results

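The comparison concerned a mouse embryonic stem cell line that carries a doxycycline-inducible Map3k3 transgene in a Nat1-null background and was grown without doxycycline, set against the Nat1-null cells themselves. Its arrays were taken by their labelled genotype and treatment and are 6 of the 15 arrays of the series, 3 for each group. All genes were examined, with the stress-kinase genes and the AP-1 factors described in most detail because they are where leakage of a MAP kinase transgene would be looked for. The labelled genotypes were tet-inducible Map3k3-expressing Nat1-null, without doxycycline (Dox), and Nat1-null. Both groups share the Nat1 deletion, the cell type, and growth in standard stem cell medium on gelatin-coated plates. Neither received Dox, so the labelled difference is the presence of the uninduced transgene and whatever the making of the line brought with it.

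The series held 3 further groups of 3 arrays, which serve here as points of reference: the same Map3k3 line with Dox, a line of Nat1-null cells with a tet-inducible EGFP transgene grown with Dox, and wild-type stem cells. The labels do not say how many clones a line represents, how the transgenes were introduced, or whether the 3 arrays of a group come from separate cultures. The p-values below therefore measure only the spread between these arrays. Part of that spread followed the replicate number in all 4 groups of null cells, as described below, and the rest may be technical.

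Map3k3 (also called MEKK3) is a kinase near the top of the MAP kinase cascades. It phosphorylates MAP2 kinases, which in turn activate the JNK, p38, ERK and ERK5 kinases. One end point of these cascades is AP-1, a set of dimeric transcription factors built from Fos, Jun, ATF and Maf proteins, whose own genes are among the fastest to be induced by growth factors and stress. In tet-inducible systems a transactivator switches the transgene on when Dox is added, and some expression without Dox, called leak, is a known property of such constructs. Nat1 is an older name of Eif4g2, a translation initiation factor related to Eif4g1 that lacks the part which binds the cap-binding protein Eif4e. Nat1-null stem cells are known for resisting differentiation.

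Levels are given as log2 signal relative to the 75th percentile of the array, so a value of 0 means as bright as that percentile, and a difference of 1 means a doubling. Differences are the uninduced Map3k3 line minus the null cells. A gene was called different when its Benjamini-Hochberg adjusted p was under 0.05 and its fold at least 1.5, in a limma fit over the 15 arrays. The 75th-percentile signal lay between 494.6 and 614.9 units over all arrays, and 50.8% to 53% of the probes were well above background in the uninduced line, against 47.3% to 48.7% in the null cells. Arrays within a group correlated at 0.991 to 0.995 in the uninduced line and at 0.986 to 0.994 in the null cells, over all genes tested. The 3 arrays of the uninduced line lay on one slide and in its first row, and the 3 arrays of the null cells lay on the other slide and in its second row. Slide, row and group cannot be told apart between the 2 groups.

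Eif4g2 checked the shared genotype. Its probe read 1.72, 1.43 and 1.70 in the uninduced line, against 1.78, 1.49 and 1.86 in the null cells, and 4.14, 4.40 and 4.39 in wild-type cells. Both groups sat far below wild-type, and their ranges overlapped, with a difference of -0.10 (95% confidence interval -0.40 to 0.21). The residual signal in both groups was well above background, and which part of the transcript the probe reads was not examined here. The gene that now bears the symbol Nat1, an arylamine N-acetyltransferase, is another gene, and its probe was not well above background on any of the 6 arrays.

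Map3k3, the gene of the transgene, read -0.75, -0.44 and -0.86 in the uninduced line, against -0.88, -0.60 and -0.87 in the null cells. The groups overlapped. The difference was 0.10 (95% confidence interval -0.16 to 0.35, limma adjusted p = 0.747), so the upper end of the interval lies under 1.5-fold. With Dox the same line read -0.48, -0.36 and -0.67, against -0.86, -0.67 and -0.78 in the EGFP line, a difference of 0.27 (adjusted p = 0.086) that was itself not called. Since no source used here says whether this single probe covers the sequence of the transgene, its value cannot be read as a measure of leak.

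No gene was called between the uninduced line and the null cells. Of 14443 genes tested, 0 (0%) reached an adjusted p under 0.05 with 1.5-fold, and the smallest adjusted p was 0.0762. At an unadjusted p under 0.05 there were 2084 genes (14.4%), of which 693 (4.80%) were higher and 1391 (9.63%) lower in the uninduced line. Adding the 1.5-fold minimum left 388 (2.69%), 140 (0.969%) higher and 248 (1.72%) lower. For 3030 genes (21.0%) every array of one group lay above every array of the other, 1003 (6.94%) higher and 2027 (14.0%) lower. The 95% confidence interval of the difference lay within 1.5-fold in either direction for 9879 genes (68.4%) and within 2-fold for 12440 (86.1%). The median difference over all genes was -0.04, with quartiles at -0.16 and 0.09. Among the 405 genes dimmer than -5 on average the median was -0.57, and there the floor of the arrays differed: the lowest level well above background was -4.56, -5.10 and -5.27 in the uninduced line, against -4.08, -3.92 and -4.72 in the null cells.

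**Figure D1:**
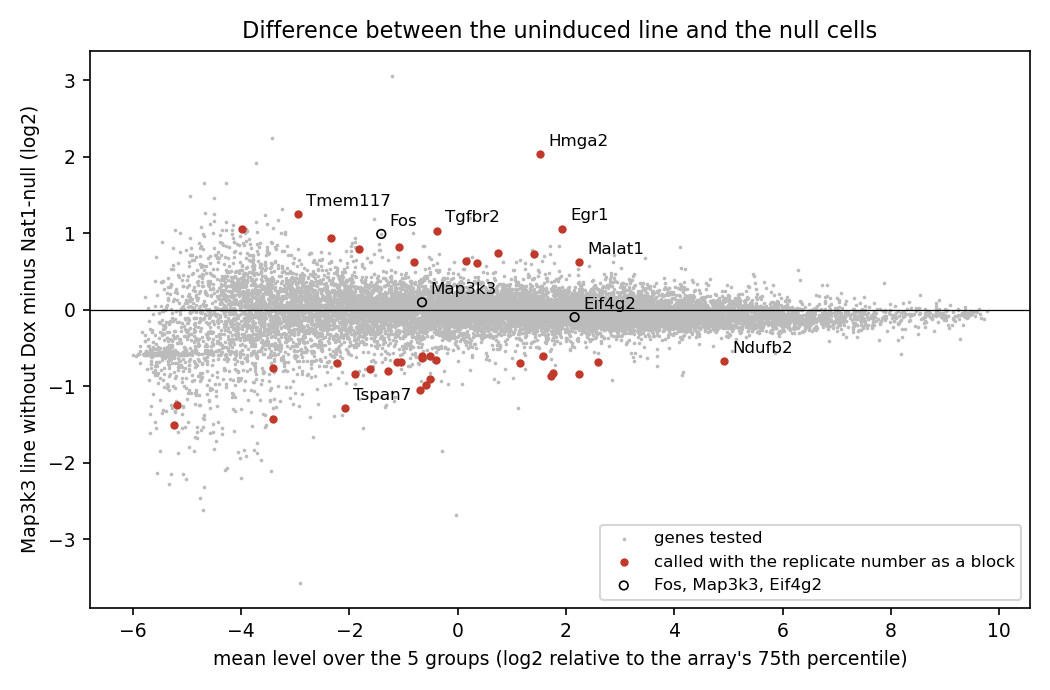
Difference in level (uninduced Map3k3 line minus Nat1-null, log2, vertical axis) against the mean level over the 5 groups (log2 relative to the 75th percentile, horizontal axis) for the 14443 genes tested. The quartiles lie at -0.16 and 0.09, the 405 dimmest genes have a median of -0.57, and red points are the 39 genes called when the replicate number was a block.

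The same fit made many calls elsewhere. The Map3k3 line with Dox differed from the EGFP line with Dox in 2603 genes (18.0%), 1788 (12.4%) higher and 815 (5.64%) lower, and these 2603 genes are called the response genes below. Their arrays are not among the 6 compared here. The uninduced line differed from the EGFP line with Dox in 0 genes (0%), with 464 (3.21%) at an unadjusted p under 0.05, of which 194 (1.34%) were higher and 270 (1.87%) lower. That pair differs in Dox as well as in the transgene.

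The response genes were the most direct place to look for leak, and without slide or row as a block their medians lay near 0. The median difference between the uninduced line and the null cells was -0.04 over the 1788 response genes higher with Dox, against -0.04 over all genes, with 787 above and 1001 below 0. Of these genes 124 were higher and 186 lower at an unadjusted p under 0.05 (4.80% and 9.63% of all genes). The median over the 815 response genes lower with Dox was 0.01, with 413 above and 402 below 0. Restricted to genes well above background on all 15 arrays, the medians were 0.00 over 1168 higher genes and -0.01 over 568 lower genes, against -0.04 over all 11838 such genes. At an unadjusted p under 0.05, 100 of the 1168 were higher and 82 lower in the uninduced line. Of the 568, 31 were higher and 55 lower, and of the 11838, 562 were higher and 1130 lower. These medians changed when slide and row were blocks, in fits that called the response genes anew. With slide as a block they were 0.11 for the genes higher and -0.094 for the genes lower with Dox. With slide and row as blocks they were 0.18 and -0.28, both in the direction of the response. The EGFP arrays that set the slide effect also entered the call of response genes, so this direction cannot be read as leak. In both fits slide is set by EGFP array 3 against EGFP arrays 1 and 2. With both blocks, row is set by array 1 of the Map3k3 line with Dox against its arrays 2 and 3. Each of these differences is also one between replicate numbers.

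The strongest response genes were examined for the rise that their intervals allow. A rise of 8-fold or more with Dox was seen for 261 genes, and for 219 of them (83.9%) the upper limit of the 95% confidence interval of the difference between the uninduced line and the null cells was under 1 log2 unit, a share that was 94.0% over all genes. Their median difference was -0.24, and many of them sit near the floor in both groups. Anxa1, a phospholipid-binding protein and one of the 10 genes with the largest rise, was well above background on all arrays. It read -1.77, -2.93 and -1.44 in the uninduced line, against -1.99, -3.07 and -1.23 in the null cells, while it reached 6.15, 6.75 and 6.12 with Dox, against -1.92, -3.46 and -1.52 in the EGFP line. The uninduced line and the null cells overlapped, with a difference of 0.05 (95% confidence interval -1.15 to 1.24). A further Anxa1 probe differed by 0.45. Intervals in this paragraph come from the fit without replicate numbers, so they take in the spread between numbers. For Anxa1, number 2 was the lowest array in both groups.

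The other genes of these 10 that could be measured in the uninduced line behaved alike. Fhl2, a LIM-domain cofactor, read -2.64, -3.76 and -2.75 in the uninduced line, against -2.68, -3.82 and -2.26 in the null cells, a difference of -0.13. Phldb2, a cortical membrane protein, read -3.81, -4.28 and -3.39 in the uninduced line, against -3.76, -4.57 and -3.62 in the null cells, a difference of 0.16. Both overlapped between the groups and rose with Dox, by 6.91 and 6.96 over the EGFP line. Crct1, Prss23, Slc25a24, Lce3c, Thbs1, Cdx2 and Edn2 were not well above background on any of the 6 arrays. Thbs1 is a matrix glycoprotein and a target of AP-1, and Cdx2 is the transcription factor of the trophectoderm.

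To place each array on the response as a whole, its difference from the mean of the EGFP arrays was projected on the mean difference between the Map3k3 line with Dox and the EGFP line, so that the EGFP line averages 0% and the Map3k3 line with Dox 100%. The uninduced line stood at 0.775%, -3.56% and 3.28%, against 4.44%, -0.239% and 10.6% in the null cells. The means were 0.165% ± 3.46 in the uninduced line and 4.95% ± 5.46 in the null cells (SD, n = 3 each). The groups overlapped, and the mean of the uninduced line was the lower one. Paired by replicate number, the uninduced array stood lower than the null array in all 3 pairs, with differences of -3.67, -3.32 and -7.36 percentage points. This position was taken from each array as measured, with no correction for slide or row. Over the 1736 response genes well above background on all 15 arrays the means were 2.47% ± 3.98 in the uninduced line and 2.82% ± 7.14 in the null cells, and the paired differences were -0.554, 2.91 and -3.40 percentage points. Wild-type cells stood at 72.8% on this axis.

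**Figure D2:**
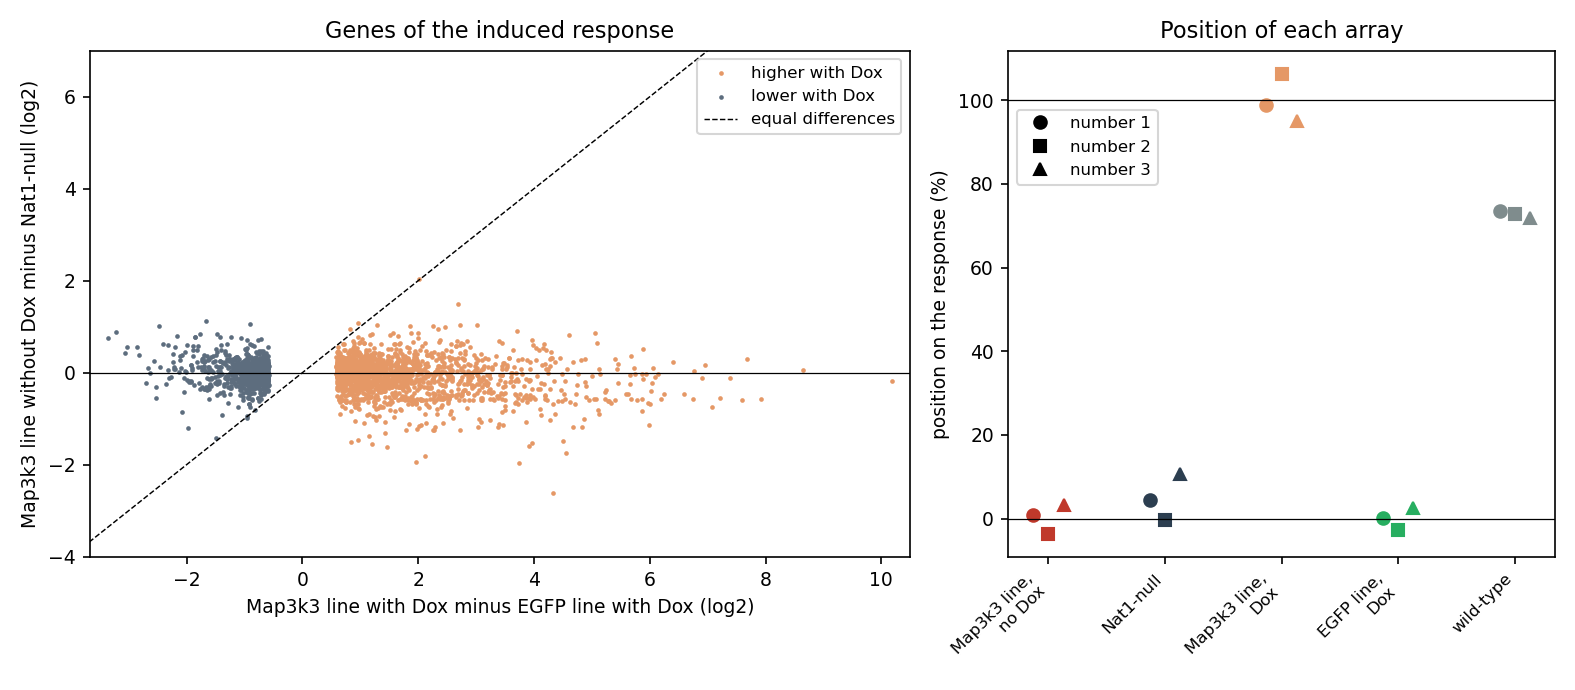
Left: difference between the uninduced Map3k3 line and null cells (log2, vertical axis) against the difference between the Map3k3 line with Dox and the EGFP line with Dox (log2, horizontal axis) for the 2603 response genes, with a dashed line where both would be equal. Right: position of each array on the response in percent, with the EGFP line at 0 and the Map3k3 line with Dox at 100 on average. The points on the left follow the horizontal line at 0, and the uninduced arrays on the right lie between -3.56% and 3.28%.

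Among the AP-1 factors, Fos, Jun and Atf3 stood higher in the uninduced line. None of the 16 AP-1 factors measured, of 17 listed, was called (0 of 14443 genes were), nor with the replicate block alone. At an unadjusted p under 0.05, 3 were higher and 1 lower, against 4.80% and 9.63% of all genes. Of the 16 factors, 12 had a difference above 0 and 4 below, with a median of 0.15 against -0.04 over all genes, and 4 factors were higher on every array of the uninduced line than on any null array (against 6.94% of all genes).

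Fos, the classic immediate-early partner of Jun, read -1.18, -0.72 and -1.20 in the uninduced line, against -2.06, -2.07 and -1.95 in the null cells. All 3 uninduced arrays were above all 3 null arrays. The difference was 0.99, a fold of 1.99 (95% confidence interval 0.48 to 1.5 on the log2 scale, limma adjusted p = 0.138). Fos was called when the replicate block was combined with the restriction to genes well above background on all 15 arrays (adjusted p = 0.0306), and not with the block alone. The same probe read -1.89, -0.96 and -1.99 in the Map3k3 line with Dox and -1.74, -1.34 and -1.53 in the EGFP line with Dox. Fos was thus not higher in the induced line than in the EGFP line (difference -0.08, adjusted p = 0.811), and the uninduced line lay 0.50 above the EGFP line (95% confidence interval -0.01 to 1.01).

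Jun, the central AP-1 subunit and substrate of JNK, read 2.31, 3.09 and 2.76 in the uninduced line, against 1.85, 2.15 and 2.30 in the null cells. The groups touched without overlapping, 2.31 against 2.30. The difference was 0.62 (95% confidence interval 0.08 to 1.16, adjusted p = 0.3). Unlike Fos, Jun was higher in the Map3k3 line with Dox, at 3.98, 4.38 and 3.94, against 1.97, 2.88 and 2.46 in the EGFP line. The uninduced line and the EGFP line differed by 0.28 (95% confidence interval -0.25 to 0.82).

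Atf3, a stress-induced factor that dimerizes with Jun, read -0.59, -0.08 and -0.38 in the uninduced line, against -1.18, -1.26 and -0.65 in the null cells. The groups did not overlap, although uninduced array 1 and null array 3 were close. The difference was 0.68 (95% confidence interval 0.19 to 1.17, adjusted p = 0.230). With Dox, Atf3 averaged 2.53 in the Map3k3 line and -0.86 in the EGFP line, a difference of 3.39. The excess in the uninduced line was small beside that response.

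The promoters of Fos and Atf3 are shown because both genes stood higher together and both hold the core of the cAMP response element, the site to which ATF and CREB proteins bind. The sequences are the 250 bases before the annotated start in RefSeq on GRCm38.p6, printed 5′ to 3′ on the strand of the gene, with the core in capitals.
Fos, chr12:85473640-85473889, plus strand: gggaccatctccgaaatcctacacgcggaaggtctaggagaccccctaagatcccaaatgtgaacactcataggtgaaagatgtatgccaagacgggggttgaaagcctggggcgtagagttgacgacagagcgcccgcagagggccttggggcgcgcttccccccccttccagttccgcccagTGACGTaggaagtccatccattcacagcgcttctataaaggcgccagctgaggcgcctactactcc
Atf3, chr1:191183334-191183583, minus strand: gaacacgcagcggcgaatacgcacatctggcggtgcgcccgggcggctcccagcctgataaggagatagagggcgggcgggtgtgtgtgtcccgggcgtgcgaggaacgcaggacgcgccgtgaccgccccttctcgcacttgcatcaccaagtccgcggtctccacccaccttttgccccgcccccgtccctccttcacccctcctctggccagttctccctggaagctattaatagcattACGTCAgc
The core TGACGT was searched on both strands, where its other strand reads ACGTCA. It begins 66 bases before the start of Fos and 8 bases before the start of Atf3. The Jun window holds 0 matches. The core is present in 2125 of 32851 such windows (6.47%). The AP-1 motif TGANTCA, which can share bases with that core, was found in none of the 3 windows and in 6.75% of all windows, and the CArG box, by which serum response factor binds, in none of the 3 and in 1.47% of all. Sequence beyond these 250 bases was not searched. No window was used for Egr1, so none of these motifs was searched for there. The absence of the CArG box from the 3 windows therefore does not extend to Egr1, the early gene with the clearest excess below. A match is a run of letters, and binding was not measured.

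For the remaining AP-1 factors the differences were smaller. Jdp2, a repressive dimer partner, did not overlap between the groups, but its difference was only 0.32 (95% confidence interval -0.22 to 0.87). Fosb, Fosl1, Fosl2, Junb, Jund, Maff, Mafg and Mafk differed by 0.11 to 0.31, and Atf2, Batf2 and Batf3 by -0.32 to -0.07, with intervals that include 0 for each. Fosl1 and Fosl2 rose strongly with Dox, by 3.65 and 2.69 over the EGFP line, yet differed by 0.11 (95% confidence interval -0.69 to 0.92) and 0.31 (95% confidence interval -0.52 to 1.14) between the uninduced line and the null cells. Batf, the 1 factor lower at an unadjusted p under 0.05, was not well above background on any of the 6 arrays.

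**Figure D3:**
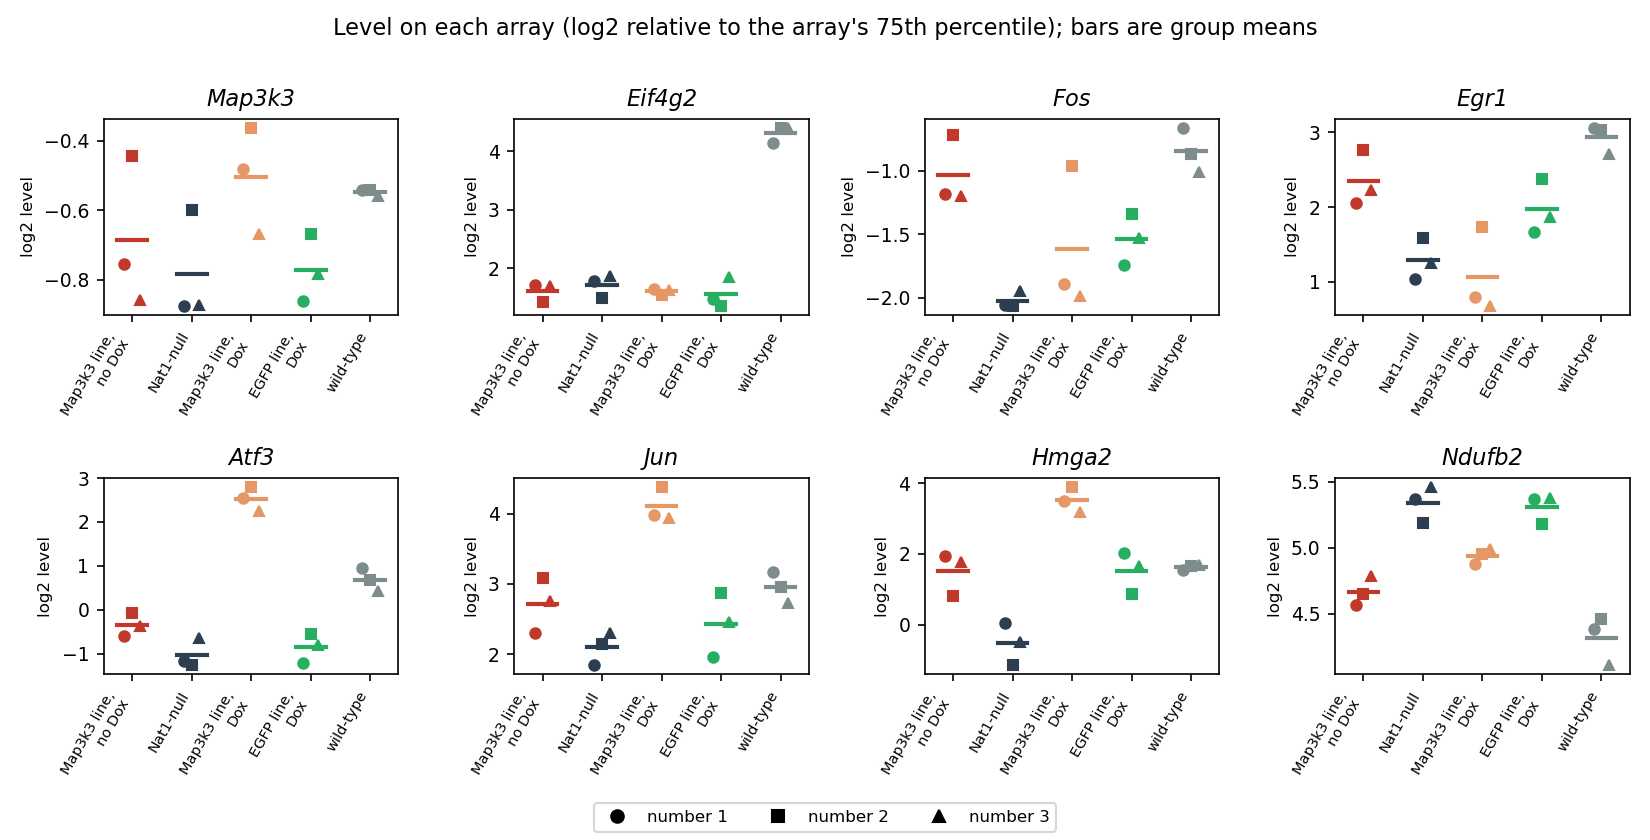
Level on each array (log2 relative to the 75th percentile) of Map3k3, Eif4g2, Fos, Egr1, Atf3, Jun, Hmga2 and Ndufb2 in the 5 groups, with bars at the group means and a symbol for each replicate number. Fos, Egr1, Atf3, Jun and Hmga2 are higher and Ndufb2 lower on every uninduced array than on every null array, while Map3k3 and Eif4g2 overlap.

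The immediate-early and ERK feedback genes showed the same mixture. Of 30 listed genes 29 were measured, 7 were higher and 3 lower at an unadjusted p under 0.05 (4.80% and 9.63% of all genes), none was called, and their median was 0.05 against -0.04 over all genes. Egr1, a zinc-finger factor induced through ERK and serum response factor, had the clearest excess. It read 2.05, 2.76 and 2.23 in the uninduced line, against 1.04, 1.58 and 1.25 in the null cells, with no overlap. The difference was 1.06, a fold of 2.08 (95% confidence interval 0.43 to 1.69, adjusted p = 0.174), and it was called with the replicate number as a block (adjusted p = 0.0359).

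Egr1 did not follow the induced response. It read 0.80, 1.73 and 0.67 in the Map3k3 line with Dox, against 1.67, 2.38 and 1.87 in the EGFP line, a difference of -0.90 that was called (adjusted p = 0.0252). The uninduced line lay 0.38 above the EGFP line (95% confidence interval -0.25 to 1.00). The EGFP line thus stood between the uninduced line and the null cells for both Fos and Egr1.

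Dusp1, the phosphatase that switches off JNK and p38, read 1.35, 1.59 and 1.26 in the uninduced line, against 0.85, 0.72 and 0.78 in the null cells. Every uninduced array was above every null array, with a difference of 0.62 (95% confidence interval 0.32 to 0.92, adjusted p = 0.128). Dusp1 too was called with the replicate block over genes well above background on all 15 arrays (adjusted p = 0.0324), and not with the block alone. Dusp1 is a response gene, at 3.61, 4.00 and 3.48 in the Map3k3 line with Dox, against 0.88, 0.91 and 0.98 in the EGFP line. The uninduced line exceeded the EGFP line by 0.47 (95% confidence interval 0.17 to 0.77), which after adjustment over all genes did not pass (adjusted p = 1). Atf3 likewise lay 0.51 above the EGFP line (95% confidence interval 0.02 to 1.00), so for both genes the uninduced line was above the null cells and the EGFP line in the direction of the response to Dox, at unadjusted intervals clear of 0.

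The other members with an unadjusted p under 0.05 were smaller or dim. Ier2, an early response gene, differed by 0.36, Dusp16, a JNK phosphatase, by 0.22, and Spred2, an inhibitor of the ERK pathway, by 0.22. Egr2 and Dusp10 were higher by 1.11 and 0.82, but Egr2 was well above background on 1 uninduced array and no null array, and Dusp10 on none. Lower were Myc, at -0.37, Egr4, at -0.85, and Ier5, at -0.65 and not well above background in either group. The intervals of ERK feedback genes that report sustained signalling were narrow around 0: Dusp6 differed by -0.04 (95% confidence interval -0.36 to 0.28), Spry2 by 0.07 (-0.18 to 0.32), Spry4 by 0.08 (-0.24 to 0.41) and Etv4 by 0.01 (-0.18 to 0.20). Phlda1, which rose by 3.08 with Dox, differed by 0.05 (95% confidence interval -0.29 to 0.40).

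The kinases of the cascade were level. Of 28 listed, 26 were measured, with a median of 0.02. The single gene at an unadjusted p under 0.05 was Mef2d, a target factor of ERK5 and p38, at 0.45. Shares over all genes were 4.80% higher and 9.63% lower. Map3k2, the closest relative of Map3k3, differed by 0.07 (95% confidence interval -0.11 to 0.25), Map2k5 and Mapk7, the ERK5 branch that Map3k3 feeds, by 0.14 (-0.05 to 0.33) and 0.04 (-0.08 to 0.15), and Mapk14, the p38 alpha kinase, by -0.09 (-0.21 to 0.04).

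Stress-kinase and AP-1 target genes differed little, including those with very large responses to Dox. Of 33 listed genes 26 were measured, with a median of 0.03. At an unadjusted p under 0.05, 3 were higher and 0 lower, against 4.80% and 9.63% of all genes. For 5 genes every uninduced array lay above every null array and for 1 below, against 6.94% and 14.0% of all genes. Anxa2, an annexin, read 5.02, 4.97 and 4.94 in the uninduced line, against 4.81, 4.54 and 4.71 in the null cells, a difference of 0.28 (95% confidence interval 0.10 to 0.47, adjusted p = 0.189). The groups did not overlap, but the EGFP line, at 5.02, 4.97 and 4.90, was as high as the uninduced line, and the Map3k3 line with Dox was at 8.08, 8.17 and 7.93. S100a10, the partner of Anxa2, and Ddit3, a factor of the unfolded protein response, were higher by 0.27 and 0.42.

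Krt18 and Krt8, simple-epithelial keratins that rose by 5.00 and 4.25 with Dox, differed by -0.08 (95% confidence interval -1.10 to 0.93) and 0.00 (-0.50 to 0.50). Gadd45b, induced by stress through NF-kB and MAP kinases, differed by -0.04 (95% confidence interval -0.22 to 0.13). Hmox1, the haem oxygenase induced by oxidative stress, was higher on every uninduced array, by 0.73, with an interval that includes 0 (-0.04 to 1.51).

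The lists for other forms of stress gave no calls. The 16 oxidative stress genes measured, of 17 listed, had a median of -0.16, with 3 above and 13 below 0, and 6 were lower at an unadjusted p under 0.05 (against 9.63% of all genes) and none higher. Srxn1, a sulfiredoxin controlled by Nrf2, read 2.61, 2.61 and 2.65 in the uninduced line, against 3.04, 3.03 and 3.09 in the null cells, a difference of -0.43 (adjusted p = 0.128). Nqo1, a quinone reductase of the same pathway, read 0.37, 0.24 and 0.55 in the uninduced line, against 0.96, 0.76 and 0.84 in the null cells, a difference of -0.47 (adjusted p = 0.166). Neither pair of groups overlapped, and the other 4 genes, Sod1, Sod2, Gsr and Gstm1, differed by -0.27 to -0.17.

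For the heat shock genes 0 of 16 measured had an unadjusted p under 0.05 in either direction, with 4 above and 12 below 0 (median -0.12). Over all genes 4.80% were higher and 9.63% lower at that threshold. For the 21 NF-kB genes 0 were higher and 2 lower, both dim, with a median of 0.00. Among 21 ATF4 targets 2 were higher and 2 lower, and among 14 interferon genes, 4 of them above and 10 below 0, 0 were higher and 2 lower. Of 18 p53 targets 2 were higher. One of them, Pmaip1, a pro-apoptotic BH3 protein, read 1.30, 1.14 and 1.03 in the uninduced line, against 0.74, 0.78 and 0.63 in the null cells, a difference of 0.44, and it read 1.28, 1.17 and 1.07 in the EGFP line, level with the uninduced line.

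Markers of stem cells were bright in both groups. Nanog read 7.35, 7.18 and 7.36 in the uninduced line, against 7.36, 7.37 and 7.29 in the null cells, Pou5f1 read 4.53, 4.63 and 4.79 against 4.69, 4.85 and 4.63, and Sox2 read 4.91, 4.88 and 4.98 against 4.87, 4.82 and 4.90. All 3 overlapped, with differences of -0.04, -0.08 and 0.06. Of the 14 general pluripotency genes, 2 lay above and 12 below 0, with a median of -0.10 against -0.04 over all genes. Of 18 naive genes 4 were higher and 2 lower at an unadjusted p under 0.05, against 4.80% and 9.63% of all genes. Klf2, Klf4, Tbx3 and Socs3, genes that LIF signalling and ERK inhibition sustain, were higher by 0.39, 0.23, 0.37 and 0.44, and Nr0b1 and Gbx2 were lower, at -0.28 and -0.37.

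Markers of other fates were mostly low or level, and some lists leaned lower in the uninduced line. Of the 14 general pluripotency genes 0 were higher and 2 lower at an unadjusted p under 0.05 (4.80% and 9.63% of all genes). At the same threshold 0 of 22 proliferation genes were higher and 7 lower, with 20 below 0 (median -0.12). Among 16 germline genes 0 were higher and 3 lower, with 15 below 0 (median -0.26). The lists for other fates were primed state (17 genes), trophectoderm (15), primitive endoderm (16), mesendoderm (10) and neuroectoderm (13). Together they held 1 gene higher and 11 lower at an unadjusted p under 0.05 (4.80% and 9.63% of all genes). Several of these were not well above background on every array, and the list medians lay between -0.30 and 0.08. Trophectoderm held 4 of the 11 lower genes, with 12 of its 15 genes below 0 (median -0.17). Primitive endoderm held another 4, with 9 of its 16 genes below 0 (median -0.30). Of 15 fibroblast and feeder genes measured, Col1a2, Dcn, Acta2 and Fbn1 were not well above background on any of the 6 arrays, 1 gene was higher (Fn1, by 0.32) and 3 lower, and the part of feeder RNA in any result was not tested further.

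When the replicate number was added as a block, 39 genes (0.270%) were called, 14 (0.0969%) higher and 25 (0.173%) lower in the uninduced line. The block was examined because arrays with the same number deviated together in the 2 groups, with correlations of 0.27, 0.62 and 0.41. The calls were fragile: leaving out any 1 of the 3 uninduced arrays left 0 called. Leaving out null array 1 gave 1 call, Lfng, which was not among the 39. Leaving out null array 3 gave 1 call, Retreg1, which was among them. Without null array 2 there were 19 calls, of which 9 were among the 39. Restricting the same model to the 12 arrays of null cells gave 60 calls (0.415%), 22 (0.152%) higher and 38 (0.263%) lower, 34 of them shared with the 39.

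Hmga2, an architectural chromatin protein, had the largest difference of these genes. It read 1.93, 0.82 and 1.77 in the uninduced line, against 0.03, -1.15 and -0.48 in the null cells, a difference of 2.04 or 4.11-fold (95% confidence interval 1.23 to 2.84, adjusted p = 0.0762, and 0.0359 with the block). A further Hmga2 probe differed by 2.01. Hmga2 read 3.50, 3.90 and 3.20 in the Map3k3 line with Dox, so it runs in the direction of the response. It also read 2.02, 0.86 and 1.67 in the EGFP line with Dox, array for array close to the uninduced line, and the uninduced and EGFP lines differed by -0.01 (95% confidence interval -0.82 to 0.79).

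Tgfbr2, the type II receptor of TGF-beta, read -0.78, -0.62 and -0.86 in the uninduced line, against -1.93, -1.80 and -1.64 in the null cells, and -0.99, -0.64 and -1.08 in the EGFP line, while the Map3k3 line with Dox averaged 2.12. Its difference of 1.03 was called with the block (adjusted p = 0.0255), but a further Tgfbr2 probe differed by -0.21. Mapk4, an atypical MAP kinase also called ERK4, was higher by 0.80 (adjusted p = 0.0355 with the block), Lrp1, an endocytic receptor, by 0.73 (0.0359), and Spic, an Ets-family factor of naive cells, by 0.62 (0.0236). Spic fell with Dox, to -1.66 on average in the Map3k3 line, against 0.75 in the EGFP line.

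The others were Tmem117 at 1.25, Izumo4 at 1.06, Retreg1 at 0.94, Tshz1 at 0.83, Igsf23 at 0.74, Nrip1 at 0.63, Srgap1 at 0.62 and Malat1 at 0.62, beside Egr1. Of the 14, 6 (42.9%) were response genes higher with Dox, against 12.4% of all genes: Hmga2, Tgfbr2, Retreg1, Nrip1, Srgap1 and Malat1. They are 0.336% of the 1788 genes of that response. Egr1 and Spic, 2 of the 14 (14.3%), were response genes lower with Dox, against 5.64% of all genes.

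The 25 lower genes were of mixed kinds. Fgf15, a growth factor of the Fgf19 family, read -0.88, -1.44 and -0.51 in the uninduced line, against 0.23, -0.59 and 0.47 in the null cells, a difference of -0.98 (adjusted p = 0.0431 with the block). Sox7, a factor of primitive endoderm, read -1.69, -1.72 and -1.71 in the uninduced line, against -1.15, -0.77 and -1.14 in the null cells, a difference of -0.69 (0.0462). Oas1a, an interferon-induced oligoadenylate synthetase, read 2.02, 1.33 and 2.09 in the uninduced line, against 2.86, 2.20 and 2.89 in the null cells, a difference of -0.84 (0.0473). Syce1, a protein of the synaptonemal complex, differed by -0.69 (0.0255), and Fam111a, a protease active at replication forks, by -1.05 (0.0236).

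In Fgf15 the ranges of the 2 groups overlap, because replicate number 2 is low in both, and the difference appears within each number. The same holds for Armcx2, at 0.62, 1.68 and 0.93 in the uninduced line, against 1.58, 2.25 and 2.00 in the null cells. Gask1b and Crhbp were not well above background on any of the 6 arrays, so their differences of -1.51 and -1.25 carry no fold.

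Of the 25 lower genes 8 (32%) lie on the X chromosome, which holds 549 of the 14443 genes tested (3.80%): Tspan7, Hmgn5, Armcx2, Tceal6, Slc38a5, Map7d3, Nlgn3 and Itm2a. Tspan7 read -4.45, -3.82 and -3.64 in the uninduced line, against -2.85, -2.88 and -2.32 in the null cells. For Hmgn5 a further probe differed by -0.12, against -0.90 for the brighter one. Among the 25, 5 (20%) were response genes higher with Dox, against 12.4% of all genes, and 5 (20%) response genes lower with Dox, against 5.64% of all genes.

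The uninduced line and the EGFP line lay within 1.5-fold of each other for 13 of the 14 higher and 23 of the 25 lower genes, against 97.4% of all genes tested. The 95% confidence interval of that difference included 0 for 11 and 21 of them, against 96.8% of all genes, so such closeness is not a trait of the 39. The comparison with the EGFP line uses the same uninduced arrays as the comparison that made the calls. The EGFP arrays lay on both slides, numbers 1 and 2 with the uninduced line and number 3 with the null cells. EGFP array 3 lay in the first row of its slide, as the uninduced arrays did, and the null arrays in the second. It read 1.67 for Hmga2 and -1.08 for Tgfbr2, beside 1.77 and -0.86 on uninduced array 3. These are 2 genes on 1 array, from which a part of slide or row cannot be told.

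**Figure D4:**
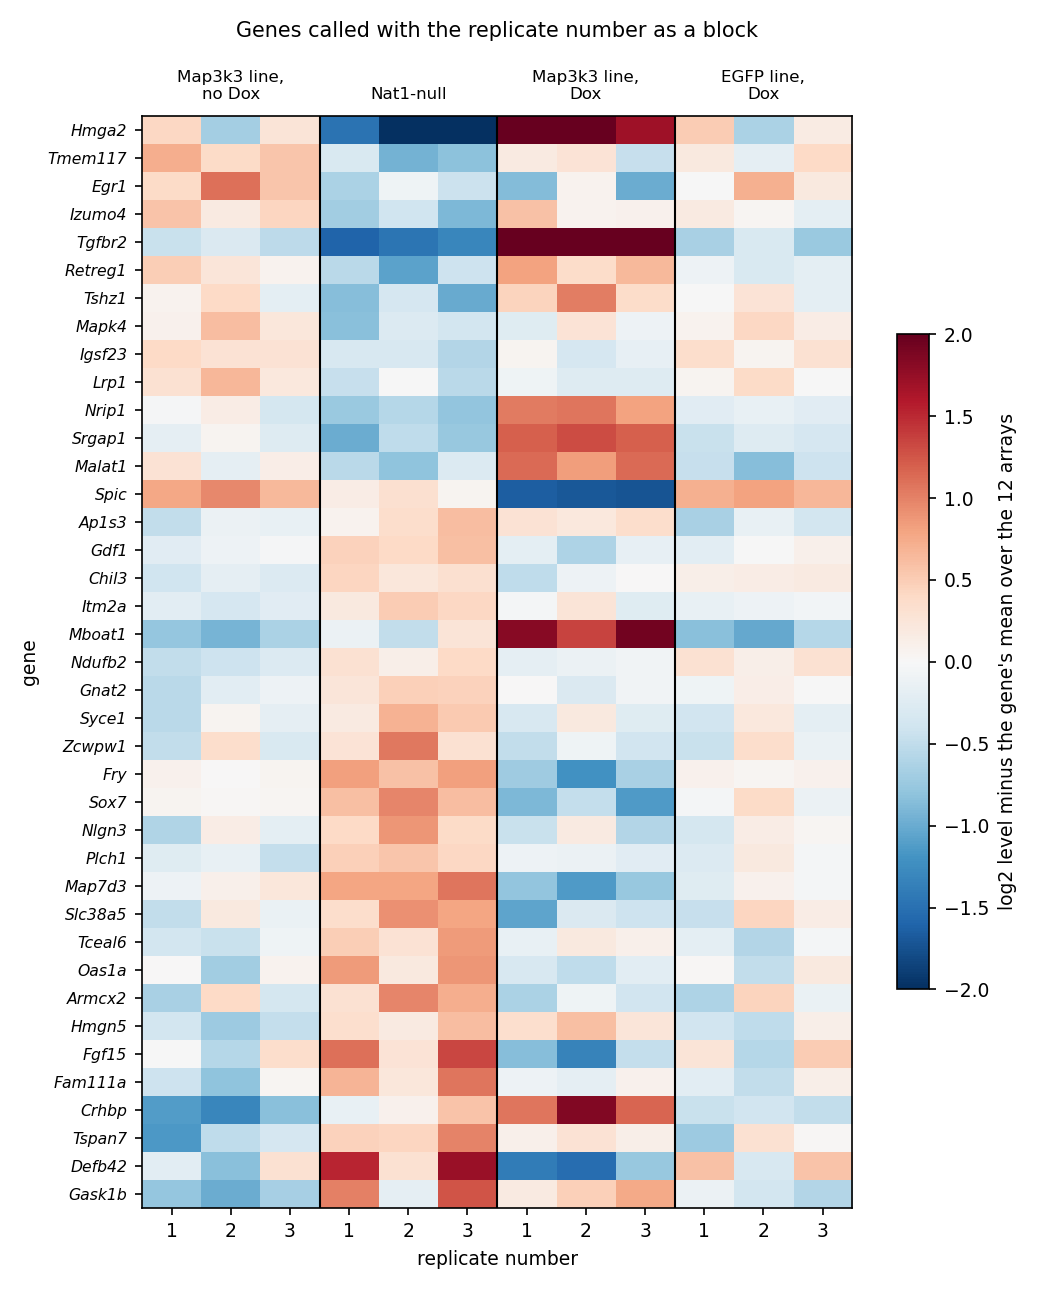
Levels of the 39 genes called with the replicate number as a block, as log2 level minus the mean of the gene over the 12 arrays of null cells (colour, red above and blue below), for the uninduced Map3k3 line, the null cells, the Map3k3 line with Dox and the EGFP line with Dox, with replicate numbers 1 to 3 along the horizontal axis. The EGFP columns resemble those of the uninduced line for most genes, and Ndufb2 and Malat1 are exceptions.

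Few genes stood apart in the uninduced line from both the null cells and the EGFP line. Those whose 3 uninduced arrays lay outside all 6 arrays of the null cells and the EGFP line, at least 1.5-fold from both means, numbered 15 higher and 50 lower. Among the 11838 genes well above background on all 15 arrays there were 5, chosen after their values were seen and given as a description: Itgav, Atf6b, Slc16a7 and Malat1 higher and Ndufb2 lower. For Itgav, Malat1 and Ndufb2 the arrays of the Map3k3 line with Dox also lay outside those 6 arrays on the same side.

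Ndufb2, a subunit of respiratory complex I, read 4.57, 4.65 and 4.79 in the uninduced line, against 5.37, 5.18 and 5.46 in the null cells and 5.37, 5.18 and 5.37 in the EGFP line. The Map3k3 line with Dox read 4.88, 4.95 and 4.99, nearer to the uninduced line. The difference from the null cells was -0.67 (95% confidence interval -0.90 to -0.44, adjusted p = 0.0762, and 0.0359 with the block), and from the EGFP line -0.64 (95% confidence interval -0.87 to -0.41, adjusted p = 0.260).

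Malat1, a nuclear long noncoding RNA, read 2.51, 2.05 and 2.36 in the uninduced line, against 1.68, 1.42 and 1.95 in the null cells and 1.76, 1.37 and 1.81 in the EGFP line, and it was higher still with Dox, at 3.36, 3.05 and 3.35. Itgav, the integrin alpha V chain, read -1.22, -1.26 and 0.04 in the uninduced line, against -1.68, -1.85 and -1.91 in the null cells, and 1.06, 1.26 and 0.79 with Dox, so 1 uninduced array accounts for much of its difference of 1.00. Atf6b, a factor of the unfolded protein response, and Slc16a7, a monocarboxylate transporter, were higher by 0.78 and 0.74 but not with Dox.

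The largest differences among the genes not called were mostly single arrays or genes near background. Given as values only, by the rule for named genes, the higher ones were Tbx15, Ptx4, Tmem117, Mirg, Sema7a, Eif4e1b, Lypd6, Kcnc4, Dner, Slc24a3 and Gpr135 after Hmga2. Sema7a, a membrane semaphorin, was bright enough to be measured on every array, at 0.99, 1.47 and 1.37 in the uninduced line, against -0.10, 0.34 and -0.01 in the null cells, a difference of 1.20 (95% confidence interval 0.67 to 1.73, adjusted p = 0.0911). The EGFP line read 1.01, 1.40 and 0.66. Lypd6 and Kcnc4 owed their differences to uninduced array 1, at -1.45 against -3.89 and -3.93 on the other arrays for Lypd6.

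The 12 lower genes were Tm4sf1, Lfng, Pramel39, Ptn, Samd7, Fem1al, Vmn2r85, Parp8, Kcnk9, Spint5, Il13ra1 and Cthrc1. Lfng, a glycosyltransferase that modifies Notch, read -6.74, -6.54 and -6.62 in the uninduced line, none well above background, against -5.48, -3.76 and -3.28 in the null cells, 2 of them well above background, which makes it at least 1.75-fold lower in the uninduced line (limma adjusted p = 0.0776). Fem1al, Vmn2r85 and Kcnk9 were at least 4.21-fold, 3.83-fold and 3.50-fold lower by the same measure. In Pramel39 a single null array stood out, at -0.72 against -6.09 and -5.17 on the other arrays.

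Replicate numbers and groups both marked differences. Over the uninduced line and the null cells, the median SD of the 3 number means was 0.104, beside 0.0986 for the SD of the 3 same-number differences. Among the 11838 genes well above background on all 15 arrays, 322 had means of the 3 numbers that ranged over 1 log2 unit or more, and 13 had means of the 2 groups that far apart. These counts are not like for like, since the number means rest on 2 arrays each and the group means on 3. Number 2 stood at least 1 log2 unit from the mean of numbers 1 and 3 in all 4 groups of null cells for 51 genes. Of these 20 were higher and 31 lower. In wild-type cells 6 genes stood that far. Hopx, a homeodomain-only protein, read 1.31, -0.38 and 2.29 in the uninduced line, against 2.41, 0.46 and 3.03 in the null cells. The labels give the numbers as replicates and do not say what a number shares across groups.

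Chromosome 1 followed the replicate numbers. Relative to wild-type cells, the median over its 624 genes well above background on all 15 arrays was 0.30, 0.01 and 0.32 in the uninduced line, against 0.34, 0.01 and 0.40 in the null cells. Number 2 minus the mean of numbers 1 and 3 was -0.35 to -0.26 in the 4 groups of null cells, while on the other 19 chromosomes this quantity lay between -0.06 and 0.08. The shift ran along the whole chromosome: in 10 runs of 62 or 63 neighbouring genes the medians were -0.26 to -0.41 in the uninduced line and -0.32 to -0.50 in the null cells. Number 2 was the lowest array in both groups for 487 of the 624 genes (78.0%), against 3185 of 11214 genes on the other chromosomes (28.4%).

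The Y-linked genes differed between all 3 numbers. Eif2s3y, a translation initiation factor gene of the Y chromosome, read 2.59, 3.39 and 1.38 in the uninduced line, against 2.57, 3.45 and 1.00 in the null cells, and 3.63, 3.75 and 3.77 in wild-type cells. Ddx3y, an RNA helicase, read 0.46, 1.64 and -0.03 in the uninduced line, against 0.38, 1.69 and -0.62 in the null cells. In both genes the order of the numbers was the same in the 2 groups. Of the 3 other Y-linked genes well above background on all 6 arrays, Gm20736, Gm21996 and Sly, number 2 was again the highest in both groups, but the order of numbers 1 and 3 differed between the groups. Gm20736 read -2.83, -1.31 and -2.33 in the uninduced line, against -2.38, -0.53 and -2.54 in the null cells.

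Between the groups the chromosomes differed little. Chromosomes 8 and 11 were low against wild-type on all 12 arrays of null cells, at -0.44 to -0.34 for chromosome 8 and -0.38 to -0.31 for chromosome 11, so both shifts are shared by the uninduced line and the null cells. The X chromosome stood at -0.20, -0.18 and -0.22 in the uninduced line, against -0.17, -0.11 and -0.15 in the null cells, without overlap. Over all tested X-linked genes the median difference was -0.13, and 21.9% of them were lower at an unadjusted p under 0.05, against 9.63% of all genes. Less the median over all genes the difference was -0.092, and it was -0.021 with slide and row as blocks and -0.048 with the replicate block added to them. The EGFP line was also below the null cells on the X chromosome, with a median of -0.08. DNA copy number was not measured.

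**Figure D5:**
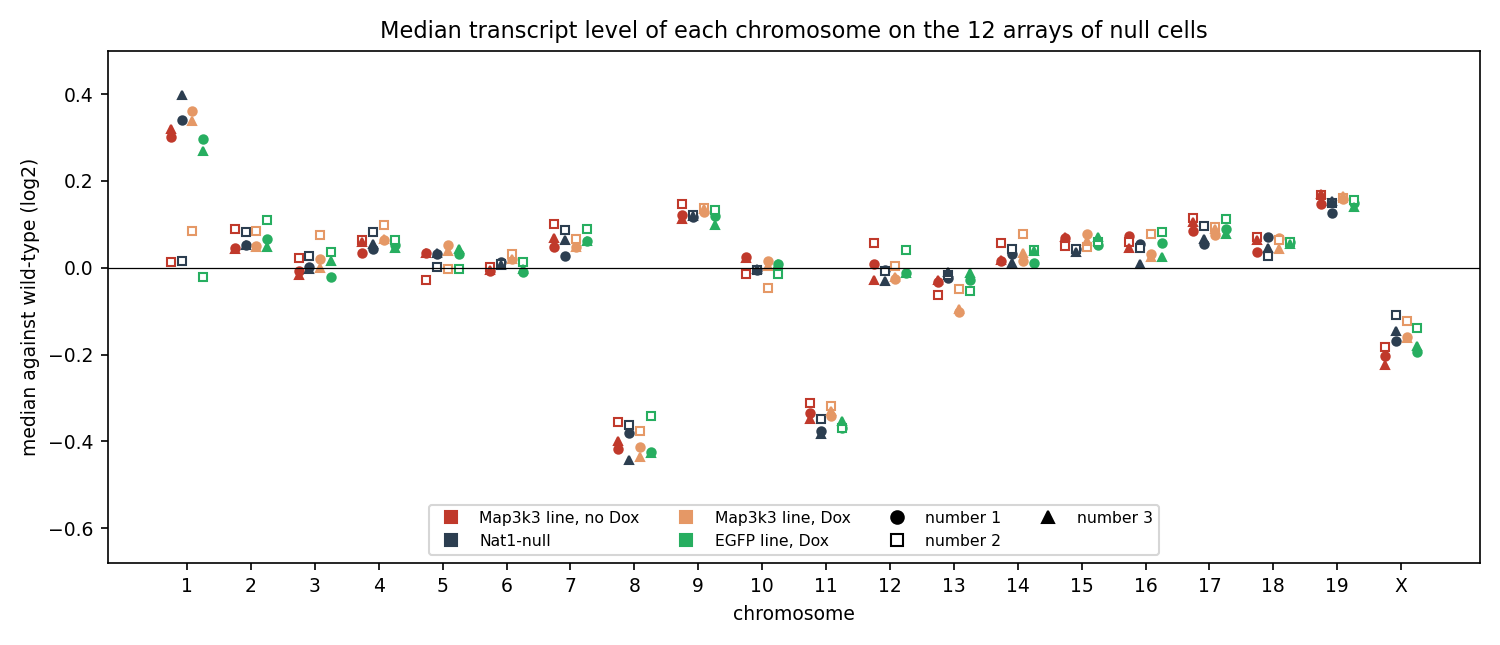
Median level of the genes of each chromosome against the mean of the wild-type arrays (log2, vertical axis), less the median over all genes, on the 12 arrays of null cells, with colours for the groups and symbols for the replicate numbers (open squares for number 2). On chromosome 1 the open squares lie at -0.02 to 0.09 and the others at 0.27 to 0.40, and chromosomes 8 and 11 are low on every array.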

How the data were processed

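The authors hybridised Cy3-labelled total RNA to 1-colour Agilent arrays, per the labels, and read the scans with Feature Extraction 11.5.1.1, per the file headers. The deposited processed green signal, an intensity already corrected for background, was turned into log2 here and the 75th percentile of each array subtracted. The authors' deposited log2 values of the same arrays served as an alternative. Each array held 62976 spots, 55681 probes after controls were left out, and 28331 of these had a RefSeq symbol. A probe was used if some group had it well above background on each of its 3 arrays, and the brightest such probe stood for its gene (14443 genes). The number of arrays limits the precision.

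limma 3.58.1 in R 4.3.3 fitted 1 mean per group over the 15 arrays, and was tested on simulated data. Same-numbered arrays of the 2 groups deviated together (r = 0.27, 0.62 and 0.41), so the fit with the replicate number as a block is printed where it changes a call. Alternatives were the background correction (normexp on median signals, since mean signals were not in the tables used), normalization, filters, probe choice, slide and row as blocks, and leaving out arrays. Bounds of fold use the lowest signal well above background on each array. By rule the text names Map3k3, Eif4g2, Nat1, the AP-1 factors, called genes, the 12 largest differences each way with arrays that do not overlap, and the 10 largest responses to Dox. The 26 lists held 509 symbols, 454 of them measured. The comparison, its members and the lists were chosen with earlier results of these data known. RefSeq windows on GRCm38.p6 came from the reference table and covered 27025 genes.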

Additional observations from a re-analysis of the deposited data

How the results depend on the processing

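The count of 0 genes called was unchanged with quantile normalization, the authors' deposited values, no filter, no fold minimum, a 2-fold minimum, the mean of the passing probes, all passing probes, spots kept that the software had set aside, the 6 arrays alone, and slide as a random block. It became 2 with normexp background (1 higher, 1 lower), 11 with only genes above background on all 15 arrays (7 higher, 4 lower, all 11 within the 39 of the replicate block), 39 with the replicate block (14 higher, 25 lower), 13 with slide as a block (9 higher, 4 lower, 0 shared with the 39), 2 with slide row as a block (1 higher, 1 lower), and 0 to 2 without one array (0 higher, 0 to 2 lower). Without null array 1 the 2 calls were Lfng and Usp47, and without null array 2 the 1 call was Gask1b, all lower.

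Alternatives chosen after seeing the data gave 60 with the replicate block over 12 arrays (22 higher, 38 lower), 0 when slide and row were added to it, 7 with slide and row as blocks (5 higher, 2 lower), 3 with a spread that follows intensity (2 higher, 1 lower), 53 with the replicate block and genes above background on all 15 arrays (22 higher, 31 lower), 5 with number 2 left out (1 higher, 4 lower), 59 with the replicate block and number 2 left out (16 higher, 43 lower), and 0 to 19 with the replicate block without one array (0 to 9 higher, 0 to 10 lower). List members called numbered 4 with the replicate block, 1 with slide as a block, 5, 6 and 2 with the block over 12 arrays, with the background filter and without number 2, and 0 to 1 with the block without one array. Against the EGFP line 1 gene was called with normexp, 1 with slide row, 4 with slide and row, 1 with the block and the background filter, and 0 to 1 with the block without one array. The replicate block alone changed no other call named in the text; the adjusted p of Pmaip1 was 0.0394 at under 1.5-fold. With the background filter it also called Fos (0.0306), Dusp1 (0.0324) and Sema7a (0.0405), and over 12 arrays Egr4 (0.0458) and Hopx (0.0302).

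The response genes were called anew in each fit. The median of those higher with Dox was 0.11 with slide as a block, 0.18 with slide and row, and 0.19 with both and the replicate block. For the genes lower with Dox it was -0.094, -0.28 and -0.40. The X chromosome median was -0.021 and -0.048 in those last fits. These blocks rest on the EGFP and Dox arrays alone, which also entered the call of the response genes, and the cause was not tested. Signs turned for the Eif4g2 probe (0.34 with slide, 0.24 with slide and row, 0.30 with the replicate block too), for Atf2 (0.035 with the mean of probes, 0.056, 0.0035 and 0.18), Jdp2 (-0.19, -1.52 and -1.78), Jund (-0.047, -0.012 and -1.06), Batf2 (0.079 with slide, 0.096 with all 3), Batf3 (0.092 with slide) and Maff (-0.012 with slide). With slide row they turned for Fosl1 (-0.36) and Fosl2 (-0.071). With slide and row they turned for Sema7a (-0.48), Tm4sf1 (0.36), Spint5 (3.29), Batf (1.13), Chil3 (0.34), Izumo4 (-0.26), Slc38a5 (0.72) and Tceal6 (0.11), and with the replicate block, slide and row for Ptx4 (-1.25), Sema7a (-1.44), Tm4sf1 (2.41), Spint5 (3.70), Atf3 (-0.12), Jun (-0.25), Chil3 (0.27) and Lrp1 (-0.0011). Without one array the differences ranged over -0.023 to 0.19 for the Map3k3 probe, -0.36 to 0.081 for Batf2, -0.18 to 0.36 for Fosl1, -0.041 to 0.66 for Fosl2, -0.054 to 0.33 for Jund, -0.096 to 0.32 for Maff and -0.0082 to 0.26 for Mafk, and with the replicate block over -0.083 to 0.26 for Fosl1 and -0.0081 to 0.32 for Jund. None of these was called in any of those fits. Over every setting run, the differences of Hmga2, Fos and Egr1 ranged over 1.73 to 4.12, 0.69 to 1.84 and 0.85 to 1.71.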
